A study of Mus musculus with 9 samples.

Results

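The genes described here are 10 members of the fibroblast growth factor (FGF) system in the mouse heart, namely the ligands Fgf1, Fgf2, Fgf9, Fgf10 and Fgf16, the intracellular family members Fgf12 and Fgf13, and the receptors Fgfr1, Fgfr2 and Fgfr3. They were chosen by symbol from the 16710 rows of the deposited expression table, and each stood on a single row. RNA was taken from the left ventricle of ICR/CD1 mice on postnatal day 14, in 9 libraries of 3 groups with 3 libraries each. Day-1 TAC mice had transverse aortic constriction on postnatal day 1, day-7 TAC mice had it on postnatal day 7, and sham mice had no constriction. No age at the sham procedure is given in their labels. TAC is a ligature on the aorta that raises the pressure in the left ventricle. The design text places the day-1 operation in the regenerative stage of the neonatal heart and the day-7 operation after it, and the comparison asks how gene expression differs between these stages. Time since TAC differs between the TAC groups, since all were sampled at the same age, so that age at surgery and days of load cannot be told apart. The labels give neither the sex of the mice nor whether the libraries of a group came from separate animals, and p-values then measure the spread between these libraries, which may be technical.

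FGF ligands are secreted or released proteins that bind receptor tyrosine kinases together with heparan sulphate on the cell surface. The bound receptor signals through the adaptor Frs2 and the Ras and MAP kinase cascade, and transcripts such as Spry4, Dusp6, Etv4 and Etv5 are known readouts of that signal. In the mouse heart, FGF signals from the epicardium and endocardium drive cardiomyocyte proliferation and coronary growth before birth. Fgf12 and Fgf13 belong to the FGF homologous factors, which stay inside the cell and bind the tails of voltage-gated sodium channels.

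The libraries held between 18535202 and 26521005 reads, recovered from the deposited log2 values. Each library's mean correlation with the others of its group, across genes, lay between 0.979 and 0.990, and day-1 TAC replicate 1 had the lowest. Day-1 TAC replicate 3 stood apart in sex-linked genes. Its Xist reads numbered 10532, against 7 to 40 in the other 8 libraries, and its Ddx3y reads numbered 18, against 3312 to 4706. Those are the values of a female, and the other 8 libraries have those of males. Day-1 TAC alone thus mixed the sexes, and its libraries came from more than 1 animal. The summed level of 8 cardiomyocyte markers, on the linear scale, was 85287 to 110957 in day-1 TAC, 100202 to 109493 in day-7 TAC and 116981 to 124036 in sham libraries. Both TAC groups lay below sham. This sum does not tell ventricle from atrium. For 5 atrial cardiomyocyte markers it was 213 to 389 in day-1 TAC, 92.5 to 314 in day-7 TAC and 152 to 246 in sham libraries. In such whole-tissue libraries, fewer cells of a type and less RNA per cell cannot be told apart.

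The largest called differences from sham were falls, in Fgf13, Fgf9, Fgf1 and Fgf16, while the receptors moved in different directions. The summed level of cardiomyocyte markers was also below sham in both TAC groups. Of the 8 markers, limma called 2 lower and 1 higher in each comparison with sham. Summed levels of 8 endothelial markers were 1351 to 1485 in day-1 TAC, 1425 to 1485 in day-7 TAC and 1516 to 1581 in sham libraries, and those of 7 pericyte and smooth muscle markers were 1411 to 1735 in day-1 TAC, 1801 to 1893 in day-7 TAC and 1984 to 2253 in sham libraries, so these too were below sham without overlap. Of the endothelial markers, limma called 0 higher and 3 lower with day-1 TAC, and 1 higher and 2 lower with day-7 TAC. Among the pericyte and smooth muscle markers, 1 was higher and 3 lower with day-1 TAC, and 1 higher and 0 lower with day-7 TAC. The part of any of these cell types in the falls was not tested. Fgf1 and Fgf9 were lowest with day-7 TAC, and Fgf13 was lowest with day-1 TAC. Of the 10 members, 9 passed the filter on low values, and each of these stood above 0 on the deposited log2 scale in all 9 libraries. Fgf10 did not pass. A gene was called where limma's adjusted p, over all 13712 genes tested, was under 0.05.

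Set against sham, day-1 TAC had 4 of the 9 tested members called, namely Fgfr1 higher and Fgf1, Fgf9 and Fgf13 lower. Of all genes tested, 34.8% were called in that comparison, 14.3% higher and 20.5% lower. In day-7 TAC against sham, 6 members were called, with Fgfr1 and Fgfr3 higher and Fgf1, Fgf9, Fgf16 and Fgfr2 lower, beside 28.9% of all genes, 13.8% higher and 15.1% lower. Between the TAC groups, 3 members were called, Fgf1 and Fgf9 higher and Fgf13 lower in day-1 TAC, beside 16.7% of all genes, 6.42% higher and 10.3% lower. Values of the groups did not overlap for 5, 7 and 3 of the 9 members in these comparisons, beside 48%, 46.7% and 38.9% of all genes. The members' median log2 fold change was -0.20, -0.28 and 0.08 in the same order, beside -0.04, -0.01 and -0.03 over all genes tested. Both comparisons with sham use the same sham libraries, so they are not independent of each other. Without sham replicate 2 the members called numbered 2 in each comparison with sham, and without day-7 TAC replicate 2 they numbered 3 in day-7 TAC against sham.

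**Figure D1:**
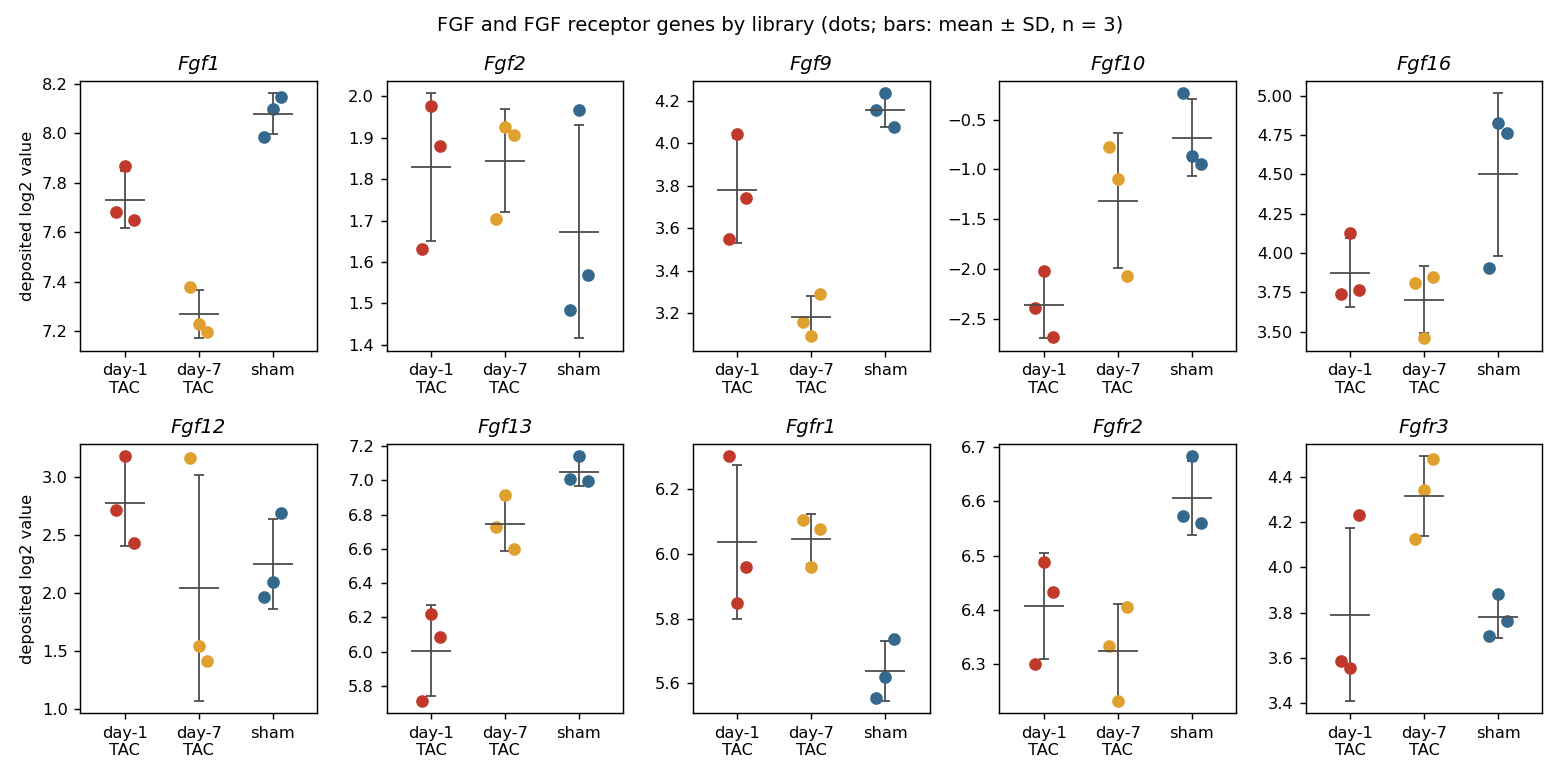
Deposited log2 value (vertical axis, a separate scale for each gene) of the 10 members in each library, with the 3 groups on the horizontal axis; dots are libraries and bars the mean ± SD (n = 3). Fgf1 and Fgf9 are lowest in the 3 day-7 TAC libraries, Fgf13 is lowest in the 3 day-1 TAC libraries, and Fgf10 lies below 0 throughout.

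**Figure D2:**
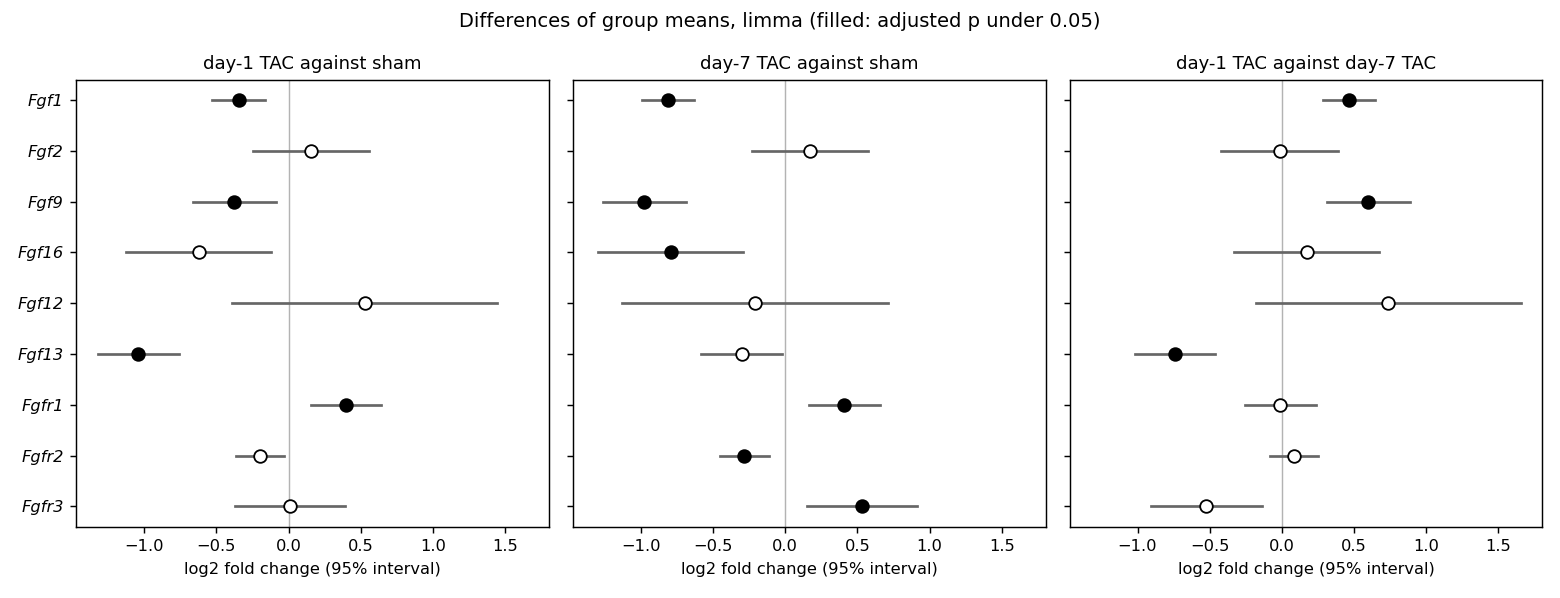
Log2 fold change of the 9 tested members (horizontal axis, with its 95% interval from limma) in the 3 comparisons; filled dots have an adjusted p under 0.05 over all genes tested. The intervals of Fgf1, Fgf9 and Fgf13 lie clear of 0 between the TAC groups, while the differences of Fgf2 and Fgfr1 there, -0.02 and -0.01, change sign under other scalings of the reads.

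Promoter windows are shown for Fgf9 and Fgf13, whose order of the TAC groups was opposite, and for Fgfr2 and Fgfr3, which moved in opposite directions with day-7 TAC, so that the letters at their starts can be compared. RefSeq rows of GRCm38.p6, with 250 bases before and 50 after a start, matched 7 of the 10 members in 14 windows of 300 bases. Where a gene had several starts, the window nearest to the start of its gene model is shown. These are Fgf9 at chr14:58072436-58072735 on the plus strand, Fgf13 at chrX:59567299-59567598 on the minus strand, Fgfr2 at chr7:130266759-130267058 on the minus strand and Fgfr3 at chr5:33721474-33721773 on the plus strand, each written 5′ to 3′ with motif matches in capitals.
Fgf9: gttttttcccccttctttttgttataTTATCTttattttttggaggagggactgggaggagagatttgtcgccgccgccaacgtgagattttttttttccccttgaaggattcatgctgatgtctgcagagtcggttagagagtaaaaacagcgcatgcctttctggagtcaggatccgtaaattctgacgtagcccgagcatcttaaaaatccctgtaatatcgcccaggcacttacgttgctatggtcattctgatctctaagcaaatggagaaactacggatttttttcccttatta
Fgf13: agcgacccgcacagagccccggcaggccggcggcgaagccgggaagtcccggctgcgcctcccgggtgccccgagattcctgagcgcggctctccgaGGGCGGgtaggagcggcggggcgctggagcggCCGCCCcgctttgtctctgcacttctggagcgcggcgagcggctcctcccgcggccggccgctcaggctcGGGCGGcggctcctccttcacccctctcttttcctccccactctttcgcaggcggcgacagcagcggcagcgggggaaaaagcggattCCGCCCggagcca
Fgfr2: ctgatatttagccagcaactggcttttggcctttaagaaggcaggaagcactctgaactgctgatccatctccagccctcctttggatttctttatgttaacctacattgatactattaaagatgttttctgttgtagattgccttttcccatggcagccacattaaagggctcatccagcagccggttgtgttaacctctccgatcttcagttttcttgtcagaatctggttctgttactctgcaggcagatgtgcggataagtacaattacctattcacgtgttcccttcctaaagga
Fgfr3: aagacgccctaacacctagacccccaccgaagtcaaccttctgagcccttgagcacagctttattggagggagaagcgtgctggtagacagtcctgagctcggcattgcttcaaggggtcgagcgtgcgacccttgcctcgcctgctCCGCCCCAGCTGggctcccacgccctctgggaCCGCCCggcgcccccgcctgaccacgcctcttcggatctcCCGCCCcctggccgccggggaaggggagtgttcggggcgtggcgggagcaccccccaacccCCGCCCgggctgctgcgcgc
Of the 6 motifs searched on both strands, the capitals mark the GC box (GGGCGG, read as CCGCCC on the other strand), the GATA site (AGATAA, or TTATCT) and the E-box (CAGCTG). The TATA box (TATAAA), the AP-1 site (TGANTCA) and M-CAT (CATTCC) had no match in these 4 windows. The Fgf13 window held 4 GC boxes at a GC content of 74.3%, and that of Fgfr3 held 4 GC boxes and 1 E-box at 69.7%. The Fgf9 window held 1 GATA site at 42.7% GC, and the Fgfr2 window, at 43.7%, held none of the 6 motifs. No matches overlapped within these 4 windows, and the median GC content of all 32851 promoters was 52.7%. A GC box was in 35.7% of all promoters, a TATA box in 13.6%, an AP-1 site in 7.81%, M-CAT in 14.7%, an E-box in 16.3% and a GATA site in 11.2%. A match is a run of letters and not a measured site, and expression values per gene do not tell which of several starts was used. The Fgf9, Fgf13 and Fgfr2 windows lay inside the annotated genes, and that of Fgfr2 was far from the annotated start at 133123350. Its letters may be those of an internal start.

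Among the ligands, Fgf1 fell after both operations and further with TAC at day 7. Fgf1 is a ligand without a classical secretion signal that binds all the main receptors. It lies on chromosome 18 at positions 38838673 to 38929472 of mm10, on the minus strand. Its log2 values were 7.68, 7.87 and 7.65 in day-1 TAC, 7.38, 7.23 and 7.20 in day-7 TAC, and 7.99, 8.10 and 8.15 in sham libraries. All 3 groups were separate, with sham highest and day-7 TAC lowest. Against sham, the log2 fold change was -0.35 (SE 0.08, limma adjusted p = 0.00915) with day-1 TAC and -0.81 (SE 0.08, limma adjusted p = 0.000198) with day-7 TAC, which is a level 0.570 times that of sham. Day-1 TAC exceeded day-7 TAC by 0.46 (SE 0.08, limma adjusted p = 0.00599). Of these calls, that of day-1 TAC against sham was lost with quantile normalization (limma adjusted p = 0.064), with a difference of -0.21.

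Fgf9, a secreted ligand of the epicardium and endocardium in the embryonic mouse heart, showed the same order of groups at a lower level. Its gene is on chromosome 14 at 58070547 to 58112720, plus strand. The log2 values were 3.55, 4.04 and 3.74 in day-1 TAC, 3.16, 3.09 and 3.29 in day-7 TAC, and 4.16, 4.24 and 4.08 in sham libraries, from 246 to 335, 164 to 214 and 324 to 482 reads. No value of a group reached into another group. With day-7 TAC the log2 fold change against sham was -0.97 (SE 0.13, limma adjusted p = 0.000661), so that the level was 0.509 times that of sham. Day-1 TAC exceeded day-7 TAC by 0.60 (SE 0.13, limma adjusted p = 0.0134). The fall of -0.38 with day-1 TAC (SE 0.13, limma adjusted p = 0.0451) was close to the threshold and was lost in 8 of 9 fits that left out a library, the exception being day-1 TAC replicate 2, and in 8 of 10 other alternatives, with adjusted p of 0.0516 to 0.146 where it was lost.

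Fgf16, of the same subfamily as Fgf9 and made by cardiomyocytes of the postnatal mouse heart, fell with day-7 TAC. It is an X-linked gene, at 105764279 to 105774939 on the plus strand. Its log2 values were 3.74, 4.13 and 3.76 in day-1 TAC, 3.81, 3.46 and 3.85 in day-7 TAC, and 3.90, 4.83 and 4.76 in sham libraries. Sham replicate 1 lay close to the TAC libraries, and below day-1 TAC replicate 2. The log2 fold change was -0.62 with day-1 TAC (SE 0.23, limma adjusted p = 0.0556) and -0.79 with day-7 TAC (SE 0.23, limma adjusted p = 0.0252), and the TAC groups differed by 0.17 (limma adjusted p = 0.639). The first of these passed without sham replicate 1 (-0.92, limma adjusted p = 0.00378) or without day-1 TAC replicate 2 (-0.75, 0.0484). The second was lost without day-7 TAC replicate 2 (-0.67, limma adjusted p = 0.0932), sham replicate 2 (-0.63, 0.0952) or sham replicate 3 (-0.66, 0.0791).

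Fgf2, a heparin-binding mitogen that leaves cells without a classical secretion signal, did not pass the test in any comparison. Its gene, on chromosome 3 at 37348346 to 37410108, plus strand, shares 640 of its exon bases, or 9.44%, with the antisense gene Nudt6, and reads of the pair cannot be told apart where the strand setting is unknown. The log2 values were 1.63, 1.98 and 1.88 in day-1 TAC, 1.70, 1.93 and 1.91 in day-7 TAC, and 1.48, 1.97 and 1.57 in sham libraries. The 3 groups overlapped. Differences from sham were 0.16 with day-1 TAC (95% interval -0.25 to 0.56) and 0.17 with day-7 TAC (-0.23 to 0.58).

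Fgf10, a ligand of the epithelial form of Fgfr2 and a known marker of outflow tract progenitors, was close to the lowest values of the table. Its gene is on chromosome 13 at 118669791 to 118792115, plus strand. It had 4, 5 and 3 reads in day-1 TAC, 14, 9 and 5 reads in day-7 TAC, and 17, 14 and 10 reads in sham libraries. Day-1 TAC did not reach the sham range, and day-7 TAC overlapped both. Since Fgf10 did not pass the filter, the fit gave no test of it. With no filter on low values, limma gave an adjusted p of 0.0131 when day-1 TAC was set against sham, 0.309 when day-7 TAC was, and 0.124 when day-1 TAC was set against day-7 TAC. Each of these counts may be 1 read too high, since the lowest value of a library was taken as 1 read.

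Of the intracellular members, Fgf13, the main FGF homologous factor of the mouse ventricle, fell with day-1 TAC. The gene is X-linked, at 59062145 to 59568071 on the minus strand. Its log2 values were 5.71, 6.22 and 6.09 in day-1 TAC, 6.73, 6.91 and 6.60 in day-7 TAC, and 7.01, 7.14 and 6.99 in sham libraries. All 3 groups were separate, in the reverse order of Fgf1 for the TAC groups. Against sham the log2 fold change with day-1 TAC was -1.04 (SE 0.13, limma adjusted p = 0.000371), a level 0.486 times that of sham. Day-1 TAC lay below day-7 TAC, with a difference of -0.74 (SE 0.13, limma adjusted p = 0.00521), and both calls held in every alternative run. The difference of -0.30 between day-7 TAC and sham (SE 0.13, limma adjusted p = 0.0989) did not pass, though it did without day-1 TAC replicate 1 (limma adjusted p = 0.0284) and with only the libraries of those groups fitted (0.0365). Without day-1 TAC replicate 3, the library apart in sex-linked genes, the day-1 TAC difference from sham was -1.08 (limma adjusted p = 0.00127).

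Fgf12, another sodium channel partner, varied too much between libraries for a difference to be seen. Its gene spans 28160098 to 28753068 on the minus strand of chromosome 16. Log2 values were 2.72, 3.18 and 2.43 in day-1 TAC, 3.16, 1.54 and 1.41 in day-7 TAC, and 1.96, 2.09 and 2.69 in sham libraries. Day-7 TAC replicate 1 was nearly as high as the highest day-1 TAC library, while the other day-7 TAC libraries were the lowest of all. The log2 difference from sham was 0.53 with day-1 TAC (SE 0.41, limma adjusted p = 0.350) and -0.21 with day-7 TAC (0.735), and day-1 TAC differed from day-7 TAC by 0.74 (0.243). Without day-7 TAC replicate 1 the last was 1.30 (limma adjusted p = 0.0216).

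Fgf12 was also set against Fgf13 in the same library. Fgf12 minus Fgf13 averaged -3.23 ± 0.37 in day-1 TAC, -4.71 ± 0.99 in day-7 TAC and -4.80 ± 0.43 in sham libraries on the log2 scale (SD, n = 3 each). Day-1 TAC exceeded sham by 1.57 with no overlap, and the exact two-sided permutation p of 0.1 was the smallest that 3 libraries against 3 can give. As a ratio within a library it does not depend on scaling. It was among 9 such comparisons of 3 gene pairs, chosen after their values were seen, and its p adjusted over the 9 was 0.225, so this is a description.

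The sodium channel subunits, of which the pore-forming ones are the binding partners of Fgf12 and Fgf13, were mixed. Of 14 listed subunits 10 were tested. With day-1 TAC 3 were above sham and 3 below, with day-7 TAC 0 were above and 3 below, and between the TAC groups 2 were higher and 3 lower in day-1 TAC. Where 0 were above sham, 1 had an unadjusted limma p under 0.05 and voom called 0. Over all genes tested, 34.8%, 28.9% and 16.7% were called in these comparisons. The median log2 fold changes of the subunits were -0.19, -0.30 and 0.33. With a library left out, day-7 TAC had 0 to 1 above and 1 to 4 below sham. Scn10a, a channel of sensory and intracardiac nerves, had 6 to 14 reads in day-1 TAC, 23 to 61 in day-7 TAC and 70 to 131 in sham libraries. It is among those counted as lower in day-1 TAC, but its day-1 TAC values were below the filter and it passed through the other groups, so it had to differ and its calls are no support. Scn3a fell with day-1 TAC, by 1.44 (SE 0.18, limma adjusted p = 0.000465). Scn7a, a sodium-sensing channel of glia, fell in both comparisons, by 1.03 with day-1 TAC (SE 0.12, limma adjusted p = 0.000338) and by 1.18 with day-7 TAC (SE 0.12, limma adjusted p = 0.000208). Scn2a and Scn3b fell with day-7 TAC, by 0.77 and 0.64 (limma adjusted p = 0.0151 and 0.0198), and neither call was firm. Scn2a lost it without day-7 TAC replicate 2 (-0.73, adjusted p = 0.0511) or sham replicate 1 (-0.68, 0.0541), and Scn3b without day-7 TAC replicate 2 (-0.63, 0.0563) or 3 (-0.63, 0.0532) or sham replicate 2 (-0.50, 0.0834).

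Between the TAC groups, Scn4b, a beta subunit, averaged 3.20 ± 0.54 in day-1 TAC, against 1.12 ± 0.54 in day-7 TAC (log2, SD, n = 3 each), a difference of 2.08 (SE 0.33, limma adjusted p = 0.00405). Day-1 TAC minus day-7 TAC was -1.20 for Scn3a (limma adjusted p = 0.00356). Beside these channels, the summed level of 6 Schwann cell and nerve markers was 17.0 to 19.3 in day-1 TAC, 13.3 to 17.3 in day-7 TAC and 27.5 to 28.5 in sham libraries. Of the 5 of these tested, 2 fell with day-1 TAC and 3 with day-7 TAC. The part of nerve tissue in the values of the channels and of Fgf13 was not tested.

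**Figure D3:**
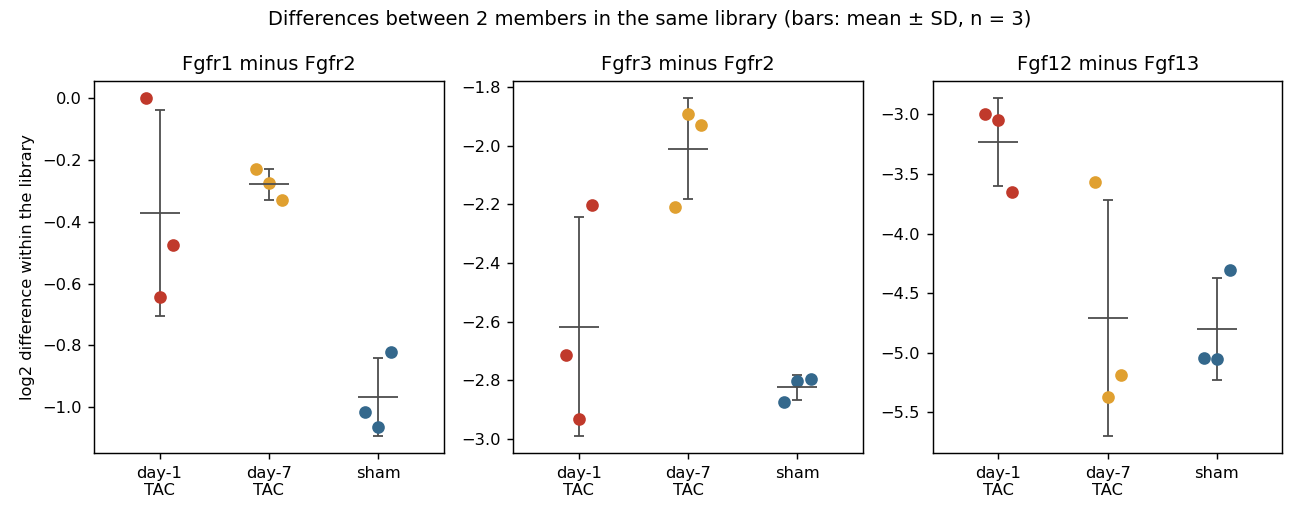
Log2 difference between 2 members in the same library (vertical axis) for Fgfr1 minus Fgfr2, Fgfr3 minus Fgfr2 and Fgf12 minus Fgf13, by group; dots are libraries and bars the mean ± SD (n = 3). Fgfr1 lies nearest to Fgfr2 in both TAC groups, and Fgf12 lies nearest to Fgf13 in day-1 TAC.

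Among the receptors, Fgfr1 was higher in both TAC groups. It is the main FGF receptor of cardiomyocytes and cardiac fibroblasts, with a gene on chromosome 8 at 25513654 to 25575718, plus strand. Log2 values were 6.30, 5.85 and 5.96 in day-1 TAC, 6.10, 5.96 and 6.08 in day-7 TAC, and 5.56, 5.62 and 5.74 in sham libraries. All 6 TAC libraries stood above the 3 sham libraries, and the TAC groups overlapped. The log2 fold change was 0.40 with day-1 TAC (SE 0.11, limma adjusted p = 0.0190) and 0.41 with day-7 TAC (SE 0.11, limma adjusted p = 0.0201). The first was lost without sham replicate 1 (0.36, limma adjusted p = 0.0596) or sham replicate 2 (0.39, 0.0573), and the second without day-7 TAC replicate 1 (adjusted p = 0.0634) or 3 (0.0599), or sham replicate 1 (0.0634) or 2 (0.0594). Between the TAC groups the difference was -0.01 (95% interval -0.26 to 0.24), with a sign that changed under other scalings.

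Fibroblasts are known to express Fgfr1, and their markers are given beside it. The summed level of 8 fibroblast markers was 3064 to 3502 in day-1 TAC, 2507 to 3078 in day-7 TAC and 2477 to 2832 in sham libraries. Of the 8, 3 rose and 1 fell with day-1 TAC, and 0 were called with day-7 TAC by limma, where 1, Lum, had an unadjusted p under 0.05 (adjusted p = 0.0569). The summed marker levels of day-7 TAC and sham libraries overlapped. The part of fibroblasts in the Fgfr1 values was not tested.

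Fgfr2, a receptor with tissue-specific isoforms that take different ligands, fell with day-7 TAC. Log2 values were 6.30, 6.49 and 6.43 in day-1 TAC, 6.33, 6.23 and 6.41 in day-7 TAC, and 6.57, 6.68 and 6.56 in sham libraries. Every TAC library was below every sham library. The log2 fold change was -0.28 with day-7 TAC (SE 0.08, limma adjusted p = 0.0197) and -0.20 with day-1 TAC (limma adjusted p = 0.0665), and the TAC groups differed by 0.08 (limma adjusted p = 0.478). The day-7 TAC call was lost without day-7 TAC replicate 2 (adjusted p = 0.0807), without sham replicate 2 (0.0768) and with limma's voom on the recovered reads (0.0526). Isoforms are not separated by these values. The annotated gene, on the minus strand of chromosome 7 at 130162451 to 133123350, includes a long read-through model that shares 314 exon bases with Ctbp2.

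Fgfr3, known in skeletal growth as a brake on cartilage cells, was higher with day-7 TAC. Its gene is on chromosome 5 at 33721674 to 33737068, plus strand, and 998 of its exon bases, 13.9%, lie opposite the gene model G630022F23Rik. Log2 values were 3.59, 3.56 and 4.23 in day-1 TAC, 4.12, 4.34 and 4.48 in day-7 TAC, and 3.70, 3.88 and 3.76 in sham libraries. Day-7 TAC lay above sham, and day-1 TAC replicate 3 lay among the day-7 TAC libraries. The log2 fold change was 0.53 with day-7 TAC (SE 0.17, limma adjusted p = 0.0412), 0.01 with day-1 TAC (limma adjusted p = 0.971), and -0.52 between day-1 and day-7 TAC (limma adjusted p = 0.0628). The day-7 TAC call was lost without day-7 TAC replicate 2 (limma adjusted p = 0.106) or 3 (0.130), without sham replicate 1 (0.107), 2 (0.0701) or 3 (0.0847), with quantile normalization (0.0501) and without the intensity trend (0.0635). Without day-1 TAC replicate 3 the difference between the TAC groups was -0.74 (limma adjusted p = 0.00874).

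Differences between receptors within a library are given as a description, since the pairs were chosen after their values were seen and no difference passed. Fgfr1 minus Fgfr2 was 0.00, -0.64 and -0.47 in day-1 TAC, -0.23, -0.27 and -0.33 in day-7 TAC, and -1.02, -1.06 and -0.82 in sham libraries on the log2 scale. Both TAC groups lay above sham without overlap, by 0.60 and 0.69, each at the smallest exact permutation p of 0.1 and an adjusted p of 0.225. Between the TAC groups the difference was -0.09 (exact permutation p = 0.7). Fgfr3 minus Fgfr2 averaged -2.62 ± 0.37 in day-1 TAC, -2.01 ± 0.17 in day-7 TAC and -2.82 ± 0.04 in sham libraries (log2, SD, n = 3 each). Here day-7 TAC alone did not overlap with sham (exact permutation p = 0.1), while day-1 TAC did (p = 0.5).

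Levels of different genes were compared per kilobase of annotated exon, on the linear scale. Fgf1 was highest, at 39.0 ± 3.23 in day-1 TAC, 28.3 ± 1.93 in day-7 TAC and 49.5 ± 2.83 in sham libraries (SD, n = 3 each). Fgf13 came next, at 16.2 ± 2.84 in day-1 TAC, 26.8 ± 2.96 in day-7 TAC and 33.0 ± 1.89 in sham libraries, so that it overlapped Fgf1 in day-7 TAC and in no other group. Fgf16, Fgfr2 and Fgfr1 followed in that order in every group. Fgf16 averaged 8.99 ± 1.41, 7.98 ± 1.14 and 14.3 ± 4.51 in day-1 TAC, day-7 TAC and sham libraries, and overlapped Fgfr2 in all 3 groups. Fgfr2 averaged 8.23 ± 0.55, 7.76 ± 0.47 and 9.44 ± 0.45, on a gene length that is uncertain because of the read-through model. Fgfr1 averaged 6.71 ± 1.14, 6.70 ± 0.35 and 5.05 ± 0.33, and it overlapped Fgfr2 in day-1 TAC.

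The remaining members were less abundant. Fgf9 averaged 2.98 per kilobase in day-1 TAC, 1.95 in day-7 TAC and 3.84 in sham libraries, and Fgfr3 averaged 1.98, 2.79 and 1.92 in the same groups. Their order was reversed in day-7 TAC, where Fgfr3 exceeded Fgf9 without overlap, while they overlapped in day-1 TAC. Fgf12 averaged 1.13, 0.779 and 0.785, and Fgf2 averaged 0.527, 0.531 and 0.475, with an overlap of this pair in day-7 TAC. Fgf10 was lowest in every group, at 0.0429 in day-1 TAC, 0.0935 in day-7 TAC and 0.139 in sham libraries, with no overlap with Fgf2.

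**Figure D4:**
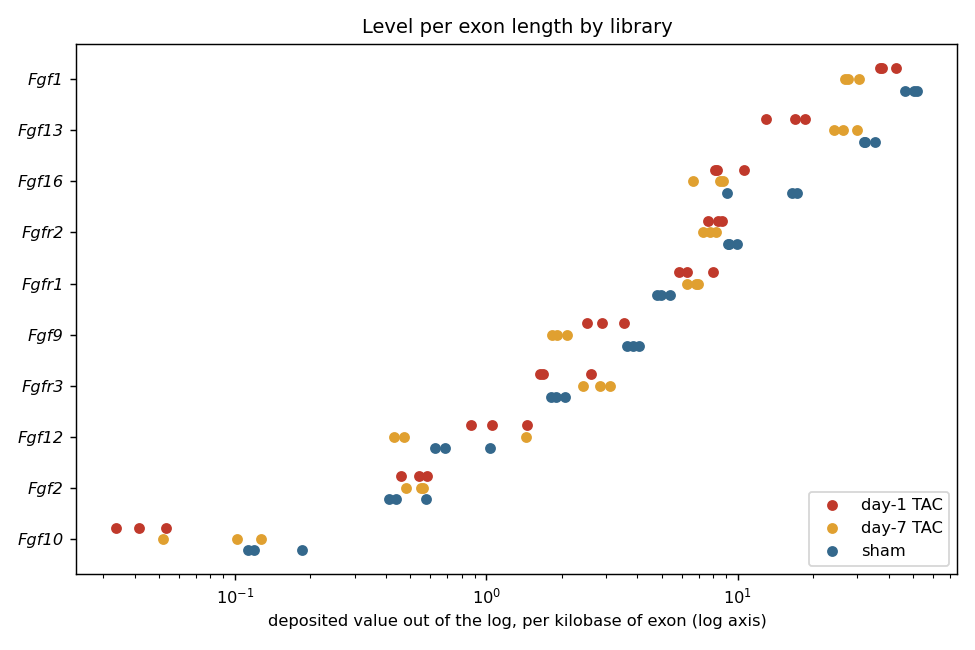
Deposited value out of the log per kilobase of exon (horizontal log axis) for the 10 members in each of 9 libraries, with a row per gene and a colour per group. Fgf1 is highest and Fgf10 lowest in every group, and Fgfr3 exceeds Fgf9 in day-7 TAC.

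Of 15 other FGF ligand genes listed, 8 were in the table and 5 were tested. With day-1 TAC 1 was above sham and 1 below, with day-7 TAC 1 was above and 2 below, and between the TAC groups 0 were called by limma, also with voom, with 1 at an unadjusted p under 0.05. Beside these, 34.8%, 28.9% and 16.7% of all genes tested were called in the same comparisons. Fgf14, another intracellular FGF homologous factor, had log2 values of 0.86, 2.13 and 1.40 in day-1 TAC, 1.77, 1.57 and 1.63 in day-7 TAC, and 3.14, 3.38 and 3.35 in sham libraries. It fell by 1.83 with day-1 TAC (SE 0.27, limma adjusted p = 0.000869) and by 1.63 with day-7 TAC (SE 0.27, limma adjusted p = 0.00184), calls that held in every alternative run. Fgf6, known as a skeletal muscle ligand, had 27 to 181 reads in day-1 TAC, 32 to 38 in day-7 TAC and 2 to 8 in sham libraries. Day-1 TAC replicate 1 held the 181 reads. Fgf6 is the gene counted as higher, but it passed the filter through the TAC libraries alone, so it had to differ and its call is no support. The summed level of 6 skeletal muscle markers was 4.76 to 7.28 in day-1 TAC, 7.64 to 7.93 in day-7 TAC and 8.20 to 8.85 in sham libraries. Of these markers 2 were tested, of which 0 were higher and 1 lower with day-1 TAC and 1 was higher and 1 lower with day-7 TAC, and the part of skeletal muscle in the Fgf6 values was not tested. Fgf11, of the homologous factors too, fell by 1.14 with day-7 TAC (limma adjusted p = 0.0173), a call lost without day-7 TAC replicate 1 (-0.96, adjusted p = 0.0608) or 2 (-1.09, 0.0563) or without sham replicate 1 (-1.08, 0.0546) or 2 (-0.89, 0.0684).

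Of 6 other receptors, coreceptors and carriers listed, 3 were in the table and 2 were tested. Fgfrl1, a receptor-like protein without a kinase, fell by 0.34 with day-1 TAC (SE 0.11, limma adjusted p = 0.0378). The call was lost without day-1 TAC replicate 2 (-0.34, adjusted p = 0.0744) or 3 (-0.30, 0.107), day-7 TAC replicate 3 (-0.34, 0.0511), or sham replicate 1 (-0.27, 0.116) or 2 (-0.32, 0.109), and in 6 of 10 other alternatives, such as the library total (-0.24, 0.110), upper quartile scaling (-0.26, 0.0883) and voom (-0.24, 0.107). Fgfr4 had 2 to 6 reads in day-1 TAC, 4 to 9 in day-7 TAC and 4 to 10 in sham libraries, and was not tested. The carrier Fgfbp3 did not pass in any comparison.

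Heparan sulphate proteoglycans and the enzymes that build and trim their chains hold FGF ligands at the receptor, and all 21 listed genes were tested. With day-1 TAC 5 were above sham and 3 below, with day-7 TAC 6 were above and 2 below, and between the TAC groups 1 was higher and 5 lower in day-1 TAC. Their median log2 fold changes were 0.11, 0.03 and 0.04, and 34.8%, 28.9% and 16.7% of all genes tested were called in the same comparisons. The counts of this list were not firm. With day-1 TAC, 7 were above sham with voom or with reads scaled to the library total, and 2 without sham replicate 1 or 2. With a library left out, 2 to 6 were above and 0 to 2 below sham with day-7 TAC, and 0 to 2 were higher and 2 to 6 lower between the TAC groups. With day-1 TAC the chain-modifying enzymes Glce and Ndst1 fell, by 0.45 and 0.48 (limma adjusted p = 0.0017 and 0.00345), as did the syndecan Sdc4, by 0.63 (0.0118), while Sdc1 was higher by 0.58 (0.00871). With day-7 TAC the differences were -0.57 for Sdc4 and 0.42 for Sdc1 (limma adjusted p = 0.0207 and 0.0415). That of Sdc4 was lost without day-7 TAC replicate 3 (-0.42, adjusted p = 0.0687) or sham replicate 1 (-0.55, 0.0586) or 2 (-0.51, 0.0750), and that of Sdc1 without any 1 of the day-7 TAC or sham libraries, with adjusted p of 0.0512 to 0.122. With day-7 TAC the extracellular sulphatases Sulf2 and Sulf1, which remove sulphate groups that FGF binding uses, were higher by 0.79 and 0.59 (limma adjusted p = 0.00223 and 0.0125). Sulf2 averaged 7.65 ± 0.21 in day-7 TAC, against 6.86 ± 0.19 in sham libraries (log2, SD, n = 3 each). Without day-7 TAC replicate 2 the call of Sulf1 was lost (0.53, adjusted p = 0.0513). With day-1 TAC Sulf1 was higher by 0.41 (limma adjusted p = 0.0482), a call lost in 7 of 9 fits that left out a library, all but those without day-1 TAC replicate 2 or sham replicate 3, and Sulf2 by 0.35, which did not pass (0.0638). Day-1 TAC minus day-7 TAC was -0.48 for Ndst1 (limma adjusted p = 0.00853), and 0.54 and -0.49 for the glypicans Gpc1 and Gpc3 (0.0139 and 0.0146). The call of Gpc1 was lost without day-7 TAC replicate 1 (0.48, 0.0527). That of Gpc3 held with each library left out and was lost in 1 of 11 other alternatives (limma adjusted p = 0.0698).

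Receptor adaptors and the MAP kinase cascade, with 19 listed genes all tested, held 2 genes above and 7 below sham with day-1 TAC, 1 above and 2 below with day-7 TAC, and 0 higher and 3 lower in day-1 than in day-7 TAC. Where 0 were higher, 2 had an unadjusted limma p under 0.05 and voom called 1. Beside these counts, 34.8%, 28.9% and 16.7% of all genes tested were called in the same comparisons. The median log2 fold changes of the list were -0.21, -0.06 and -0.03. The balance in day-1 TAC depended on scaling, since with reads scaled to the library total 4 were higher and 4 lower, and with a library left out 0 to 3 were higher and 6 to 7 lower. Between the TAC groups the 3 lower became 0 without day-1 TAC replicate 3, without day-7 TAC replicate 1 or 2 and without the intensity trend, and with the library total 1 was higher and 1 lower. With day-7 TAC against sham, 0 to 1 were higher and 1 to 2 lower with a library left out. With day-1 TAC, Frs2, the docking protein of FGF receptors, fell by 0.53 (SE 0.08, limma adjusted p = 0.00111), the docking protein Gab1 by 0.45 (0.00391) and the phospholipase Plcg1 by 0.42 (0.00655). These 3 calls held in every alternative run. Gab1 fell with day-7 TAC too, by 0.61 (SE 0.09, limma adjusted p = 0.00109), and Plcg1 was called there at an adjusted p of 0.0417 that was lost in 12 of 19 alternatives. Among these were the fits without day-1 TAC replicate 3, day-7 TAC replicate 1 or 2, or sham replicate 1 or 2, with adjusted p of 0.0550 to 0.135.

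Transcripts that respond to FGF signals and feedback inhibitors numbered 16 listed and 15 tested. Relative to sham, 3 were higher and 2 lower with day-1 TAC, and 0 were higher and 3 lower with day-7 TAC, and between the TAC groups 3 were higher and 0 lower in day-1 TAC. Where 0 were above sham with day-7 TAC, 1 had an unadjusted limma p under 0.05 and voom called 0, and where 0 were lower between the TAC groups these numbers were 2 and 0. Over all genes tested, 34.8%, 28.9% and 16.7% were called in the same comparisons. The median log2 fold changes of the list were -0.16, -0.13 and 0.08. With a library left out, 2 to 3 were above and 1 to 4 below sham with day-1 TAC, and 1 to 3 were higher in day-1 than in day-7 TAC. Spry4, a feedback inhibitor of receptor tyrosine kinases, had log2 values of 5.40, 4.85 and 4.86 in day-1 TAC, 4.26, 4.33 and 3.95 in day-7 TAC, and 3.75, 3.92 and 4.27 in sham libraries. It was higher with day-1 TAC than in sham libraries by 1.05 (SE 0.18, limma adjusted p = 0.00184) and than with day-7 TAC by 0.85 (SE 0.18, limma adjusted p = 0.0116), in every alternative run.

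The transcription factor Etv4 had log2 values of 3.58, 2.10 and 2.44 in day-1 TAC, 1.28, 1.93 and 1.49 in day-7 TAC, and 0.43, 0.68 and 0.95 in sham libraries. All 3 groups were separate, with day-1 TAC replicate 1 well above the rest. Day-1 TAC exceeded sham by 2.02 (SE 0.35, limma adjusted p = 0.00186), and by 1.59 without replicate 1 (0.00273). The excess over day-7 TAC, 1.15 (limma adjusted p = 0.0466), was lost in 8 of 9 fits that left out a library, all but that without day-1 TAC replicate 2, with adjusted p of 0.0520 to 0.137, and was 0.71 without day-1 TAC replicate 1. The phosphatase Dusp6 was higher in day-1 TAC than in sham by 0.52 (limma adjusted p = 0.0171), a call lost without day-1 TAC replicate 1 (0.37, adjusted p = 0.0520) or sham replicate 1 (0.0536), and than in day-7 TAC by 0.65 (0.0131), lost without day-7 TAC replicate 3 (0.0513).

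Etv5, a close relative of Etv4, fell with day-7 TAC. Its log2 values were 3.73, 2.91 and 2.90 in day-1 TAC, 2.50, 2.88 and 2.55 in day-7 TAC, and 4.06, 4.23 and 3.39 in sham libraries. The log2 fold change of day-7 TAC against sham was -1.25 (SE 0.26, limma adjusted p = 0.0061). That of day-1 TAC was -0.71 (limma adjusted p = 0.0559), and day-1 TAC minus day-7 TAC was 0.54 (0.175), neither of which passed. Il17rd, a feedback inhibitor, fell with day-1 TAC by 0.50 and with day-7 TAC by 0.44 (limma adjusted p = 0.00961 and 0.0202). The second was lost without day-7 TAC replicate 2 (-0.37, adjusted p = 0.0797) or 3 (-0.41, 0.0629) or sham replicate 1 (-0.43, 0.0533) or 2 (-0.38, 0.0797). Spry4, Etv4 and Dusp6 also respond to other growth factor receptors, and macrophage markers too were higher in day-1 than in day-7 TAC. The summed level of 7 macrophage markers was 120 to 165 in day-1 TAC, 78.8 to 91.9 in day-7 TAC and 95.6 to 133 in sham libraries, with 3 of 7 higher in day-1 TAC against sham and 5 of 7 higher in day-1 against day-7 TAC. The sums of day-1 TAC and sham libraries overlapped. In day-7 TAC against sham 2 of the 7 were lower and 0 higher. The part of macrophages in the values of Spry4, Etv4 and Dusp6 was not tested.

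**Figure D5:**
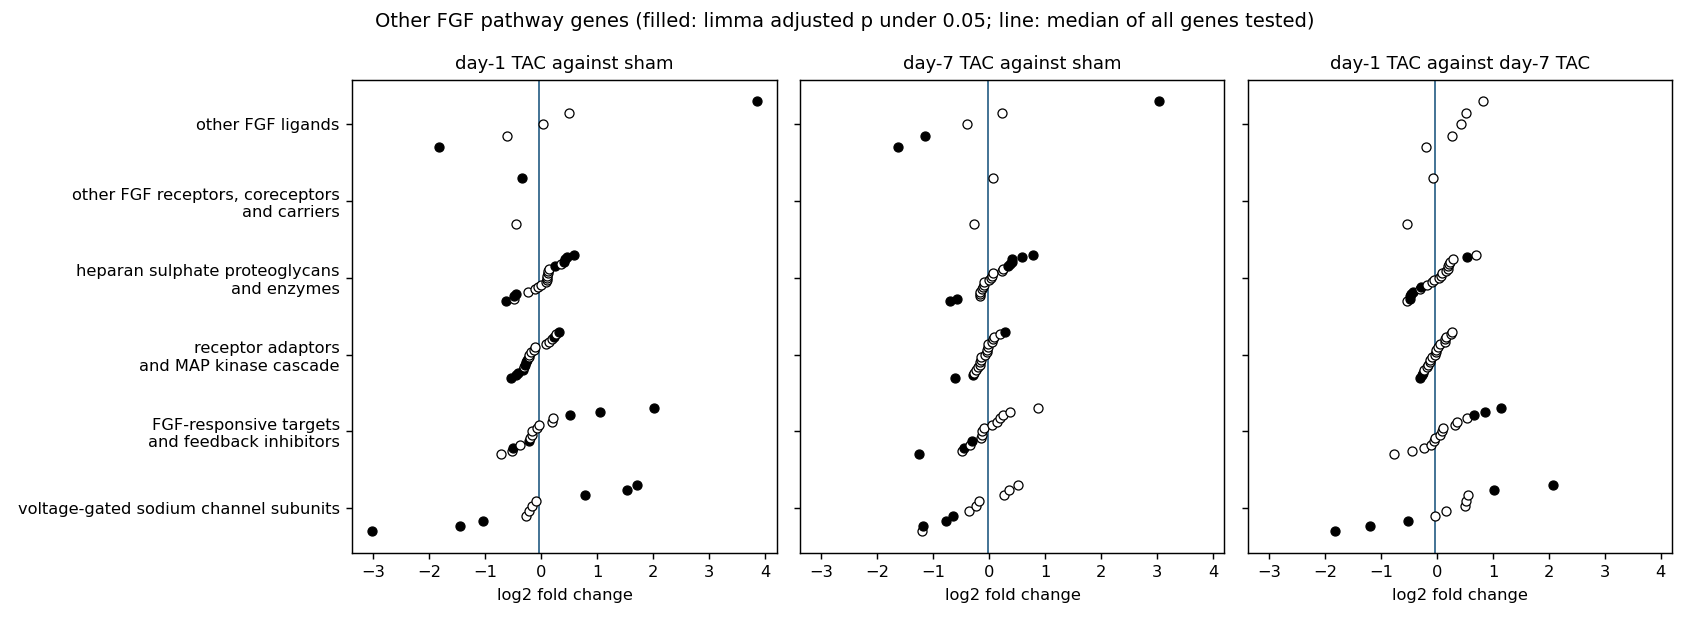
Log2 fold change (horizontal axis) of every tested gene of the 6 FGF pathway lists in the 3 comparisons; filled dots have a limma adjusted p under 0.05 and the vertical line is the median of all genes tested. The outermost dots, Fgf6 to the right in both comparisons with sham and Scn10a to the left with day-1 TAC, belong to genes with few reads in a group, 2 to 8 in sham and 6 to 14 in day-1 TAC libraries, which passed the filter through the other groups alone.

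For the 3 members with the widest range of group means, the genes whose deviations over the 9 libraries were nearest were sought among all genes tested. Nearness was the root mean square difference of log2 values after each gene was centred on its own mean. Nearest to Fgf10 were Ramp1 (0.287), Hspbap1 (0.327) and 9330136K24Rik (0.332). Fgf10 itself did not pass the filter and had 3 to 17 reads a library, so its range and its nearest genes rest on few reads. Nearest to Fgf13 were the secreted protease Adamts3 (0.114), the chromatin reader Dpf3 (0.116) and the receptor kinase Grk3 (0.116). Nearest to Fgf9 were Sobp (0.0975), the transcription factor Six5 (0.115) and Hrc (0.116), a calcium-binding protein of the sarcoplasmic reticulum. Sobp averaged 5.90 ± 0.15 in day-1 TAC, 5.38 ± 0.05 in day-7 TAC and 6.20 ± 0.12 in sham libraries (log2, SD, n = 3 each), with the order of groups that Fgf9 had. Adamts3 averaged 4.08 ± 0.27 in day-1 TAC, 4.63 ± 0.22 in day-7 TAC and 4.98 ± 0.03 in sham libraries, in the order of Fgf13. The 9 libraries are shared by all these genes, and the values describe likeness alone.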

How the data were processed

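Left ventricular RNA of 9 libraries was analysed. The members and gene lists were chosen with earlier results of these data known. Per the labels' protocols, mRNA was purified with Dynabeads and sequenced with ScriptSeq v2 libraries, single-ended. The submitters' processing notes name Trim Galore, STAR, edgeR and mm10; for versions, annotation, strand setting and reads mapped to several places the sources used here give nothing. The authors deposited log2 values, TMM-scaled per the file headers. The median log2 value was 3.7526 in every library but day-1 TAC replicate 3, where it was 3.7554, so the deposited values are in effect aligned on the library median. Reads were recovered from the linear values, 100% of which were whole multiples of their library's lowest value, taken as 1 read, to within 0.001.

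The 12 rows of 3 repeated symbols were left out, which kept 16698 genes. Genes above 0 in at least 3 libraries (13712) were tested with limma 3.58.1 in R 4.3.3, in a linear model of all 9 libraries with an intensity trend, two-sided, adjusted by Benjamini-Hochberg over all genes, and the test was checked on simulated data. A fold change is a difference of mean log2 values. Because 2 sham columns share a name, sham replicate numbers 2 and 3 follow column order and pair nothing. Chi-square per gene between replicates was 10.3 to 30.2, so none was a copy. Gene positions and exon lengths are from GENCODE mouse release 21 (mm10). Named were all members, up to 4 called genes with the smallest p per list and comparison, and for 3 members the 3 most alike genes. Some genes named by it are not reported here. Alternatives covered scaling, filters, the trend, voom, the groups fitted, the replicate block and each library left out. Voom on reads less 1 was added after the data were seen.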

Additional observations from a re-analysis of the deposited data

Results flagged for a closer look

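Differences between the effects of day-1 and day-7 TAC passed limma's test for 3 of the 9 tested members, beside 16.7% of all genes tested. Both effects were taken against the same sham libraries, so their difference equals the direct comparison of day-1 with day-7 TAC. Fgf1 was higher in day-1 TAC by 0.46 on the log2 scale, Fgf9 was higher by 0.60, and Fgf13 was lower, with a difference of -0.74 (limma adjusted p = 0.00599, 0.0134 and 0.00521). In each, the 3 day-1 TAC values and the 3 day-7 TAC values did not overlap, as in 38.9% of all genes tested. Fgf1 and Fgf13 kept their calls in the 20 alternatives run, and Fgf9 in 19 of them.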

How the results depend on the processing

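Depth limits Fgf10, Fgfr4 and Fgf6 in sham libraries, which rest on few reads. Genes called between the TAC groups numbered 2287, against 1167 with the replicate block and 1261 to 2491 with a library left out, with 1290, 1261 and 1300 without day-7 TAC replicates 1, 2 and 3. In day-7 TAC against sham they numbered 3962, and 2594, without day-7 TAC replicate 2, to 4404 with a library left out. Members called were 2 to 5 in day-1 TAC against sham and 2 to 7 in day-7 TAC against sham when a library was left out. The replicate block, possible in the 6 TAC libraries alone, gave 2 members called, against 3 without it, as Fgf9 then had an adjusted p of 0.0654. It called 0 adaptor and MAP kinase genes lower in place of 3, and 2 heparan sulphate genes in place of 5. Deviations of same-numbered day-1 and day-7 TAC libraries correlated at -0.22, -0.11 and -0.04, and not every library was most alike its own number, so the numbers pair no samples.

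Among the members' differences, 4 that did not pass changed sign. Fgf2 between the TAC groups was 0.026 with reads scaled to the library total, 0.039 with upper quartile scaling, 0.032 with voom on reads, 0.031 with voom on reads less 1 and 0.023 where 0.5 was added before the log, and ran from -0.090 to 0.083 with a library left out. Fgfr1 between the TAC groups was 0.032 with the library total, 0.045 with the upper quartile, 0.057 with quantile normalization, 0.032 with either voom fit and 0.032 with 0.5 added, and ran from -0.14 to 0.084. With a library left out, Fgf12 in day-7 TAC against sham ran from -0.77 to 0.10, and Fgfr3 in day-1 TAC against sham from -0.21 to 0.13. The cause was not tested.

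The share of calls that were higher, 41.1%, 47.7% and 38.5% for day-1 TAC against sham, day-7 TAC against sham and day-1 against day-7 TAC, was 60.1%, 59.7% and 50.2% with the library total, 57.7%, 54.3% and 54.3% with the upper quartile, and 50.7%, 51.3% and 48.5% with quantile normalization. The median of all genes moved by at most 0.10, in day-1 TAC against sham with voom.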
